A study of Rattus norvegicus with 9 samples.

Results

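The genes described here are 9 genes of lymphocytes and other white blood cells, Coro1a, Lck, Cd5, Ighvl1, Plac8, Arhgap4, Traf5, Ptprc and Cd4, measured in RNA from isolated pancreatic islets of rats. They are 9 of the 14217 genes that the array's annotation names by 1 symbol. They are read by 10 probe sets of the 31042 non-control probe sets on the array, taken as all probe sets whose annotation gives exactly that 1 symbol; Ptprc has 2 probe sets and each other gene has 1. The members were chosen on earlier results of these same arrays, mostly on their lower signal after the cafeteria diet and on the high signal of 1 array, standard replicate 3. Their differences between the diets, and their levels on that array, are therefore given as a description and without a test.

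Islets were isolated from adult male Wistar rats, 7 weeks old at the start, after 30 days on a cafeteria diet that supplied 66% of calories as fat (5 arrays) or on standard chow that supplied 8% (4 arrays). The design text names a further standard sample, which was not analysed here. The islets had been freed by collagenase, separated on a density gradient and picked by hand. The labels do not say whether rats were pooled within a sample, so the spread between arrays may hold technical as well as animal differences. Titles, source names and descriptions set the groups; a separate diet entry contradicts them for all 9 arrays, and had it been used instead each difference would change sign.

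Each value is an intensity signal of the Affymetrix Rat Genome 230 2.0 array, on a linear scale, with every array scaled by the authors to the same trimmed mean of 500. Array medians lay between 147.0 and 166.6. There is no read depth in such data; the number of arrays limits the precision. A log2 fold is the mean log2(signal + 16) of cafeteria arrays minus that of standard arrays, a scale that understates the change of dim genes.

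Lymphocytes recognise antigen through receptors that are built differently in T cells and B cells. In T cells the receptor signals through the CD3 chains, which the kinase Lck phosphorylates; Lck is brought there by the co-receptors CD4 and CD8 and is held active by the phosphatase CD45, the product of Ptprc. In B cells the receptor is a membrane immunoglobulin with the signalling chains CD79A and CD79B. Healthy islets hold resident macrophages and few lymphocytes, whereas lymph nodes lie close to the pancreas. In bulk RNA, fewer cells of a type and less RNA per cell cannot be told apart.

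The sequences around the starts of these genes are shown as a description, and their part in the signals was not tested. RefSeq windows of the GRCr8 build, from 250 bases before to 50 after a start, were matched by gene identifier for 7 of the 9 members, with 8 windows in all since Lck has 2; Ighvl1 and Cd4 had none. Capitals mark matches, on either strand, to GGAAGT (core of sites for ETS factors) or TGTGGT (core of sites for RUNX factors), families that act in many blood cell genes. The windows are those of Ptprc (chr13:52259697-52259996 on the minus strand), Lck upstream (chr5:147201218-147201517 on the minus strand), Lck downstream (chr5:147183601-147183900 on the minus strand), Plac8 (chr14:9356700-9356999 on the plus strand) and Coro1a (chr1:190731054-190731353 on the minus strand).
Ptprc: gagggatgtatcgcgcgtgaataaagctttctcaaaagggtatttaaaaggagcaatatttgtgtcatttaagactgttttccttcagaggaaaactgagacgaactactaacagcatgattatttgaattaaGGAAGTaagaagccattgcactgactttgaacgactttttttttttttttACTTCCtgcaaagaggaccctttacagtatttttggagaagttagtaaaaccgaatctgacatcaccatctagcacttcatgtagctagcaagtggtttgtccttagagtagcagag
Lck upstream: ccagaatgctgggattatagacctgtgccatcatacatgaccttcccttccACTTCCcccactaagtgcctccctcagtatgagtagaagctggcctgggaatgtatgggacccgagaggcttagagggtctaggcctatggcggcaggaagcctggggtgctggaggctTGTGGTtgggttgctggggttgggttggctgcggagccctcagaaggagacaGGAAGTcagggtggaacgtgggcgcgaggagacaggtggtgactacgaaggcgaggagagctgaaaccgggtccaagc
Lck downstream: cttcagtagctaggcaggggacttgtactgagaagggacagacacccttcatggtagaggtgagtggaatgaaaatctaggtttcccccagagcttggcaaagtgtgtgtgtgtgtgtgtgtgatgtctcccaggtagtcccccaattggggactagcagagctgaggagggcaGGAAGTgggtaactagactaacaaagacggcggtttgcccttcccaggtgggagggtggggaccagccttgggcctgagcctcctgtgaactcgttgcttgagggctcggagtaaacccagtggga
Plac8: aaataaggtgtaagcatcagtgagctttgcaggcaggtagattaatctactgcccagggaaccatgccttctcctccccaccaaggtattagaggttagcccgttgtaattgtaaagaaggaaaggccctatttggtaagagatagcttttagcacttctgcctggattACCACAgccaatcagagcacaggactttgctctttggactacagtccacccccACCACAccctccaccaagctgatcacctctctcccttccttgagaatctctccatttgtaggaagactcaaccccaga
Coro1a: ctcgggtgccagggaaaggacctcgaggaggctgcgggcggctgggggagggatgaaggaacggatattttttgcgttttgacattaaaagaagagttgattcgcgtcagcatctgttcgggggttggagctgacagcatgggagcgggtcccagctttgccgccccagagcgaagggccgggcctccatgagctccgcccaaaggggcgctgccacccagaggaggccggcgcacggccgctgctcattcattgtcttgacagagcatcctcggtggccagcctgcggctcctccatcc

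GGAAGT was present in 4 of the 8 windows, those of Ptprc, Cd5 and both Lck starts, and in 22.6% of all 33469 RefSeq windows of the same length. TGTGGT was present in 2 of 8, those of Plac8 and the upstream Lck start, and in 17.3% of all windows. TATAAA, the TATA box core, was in 0 of 8 and in 14.2% of all. Coro1a, Arhgap4 and Traf5 held none of these 3 motifs, whose matches do not overlap in the windows shown. A match describes the letters of the window only.

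The 10 probe sets were of low to middle brightness. Their mean levels lay between the 29th percentile (the dimmer Ptprc probe set) and the 63rd percentile (Lck and Plac8) of all probe sets. A filter that kept probe sets with a mean at or above the 40th percentile, a signal of about 91.1, retained 8 of the 10; the dimmer Ptprc probe set and Cd4 fell below it. With standard replicate 3 left out of that mean, 6 passed, as Cd5 and Ighvl1 then fell below it as well. No probe set on the whole array was called by limma at an adjusted p under 0.05, 0% of the 18625 tested, and the same was found for 8 arrays without standard replicate 3, again 0%.

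Among the members of T cell signalling, Lck had signals of 221.1, 279.9, 292.1, 245.8 and 262.9 on the 5 cafeteria arrays, against 260.9, 336.5, 752.5 and 290.7 on standard replicates 1 to 4. Standard replicate 3 stood above all the others, and the remaining standard arrays overlapped the cafeteria range. The log2 fold was -0.50 ± 0.26 (SE) with all arrays and -0.17 ± 0.17 without standard replicate 3; without that array the Lck difference was about the size of its standard error.

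Cd5, an inhibitory surface protein of T cells and of some B cells, had 84.91, 168.1, 30.66, 74.32 and 77.75 on the cafeteria arrays, against 141.3, 134.5, 274.8 and 74.66 on the standard arrays. The highest signal was again on standard replicate 3, and cafeteria replicate 2 exceeded the other 3 standard arrays. Its log2 fold was -0.75 ± 0.39 (SE), and -0.46 ± 0.46 without standard replicate 3. Its size also shrank, to -0.50, when cafeteria replicate 3, where Cd5 was lowest, was left out.

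Cd4, the co-receptor of helper T cells, which rat macrophages carry too, did not share the pattern. Its signals were 37.61, 47.64, 73.34, 85.5 and 51.19 on the cafeteria arrays, against 13.89, 123.7, 91.1 and 56.08 on the standard arrays. The highest and the lowest of the 9 signals were both on standard arrays, and standard replicate 3 lay between them. The log2 fold was -0.04 ± 0.47 (SE) and turned to 0.12 ± 0.52 without standard replicate 3, both far within the spread between arrays.

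Ptprc was read by 2 probe sets that share their highest array. The brighter probe set had 82.38, 109.8, 205.1, 71.21 and 96.07 on the cafeteria arrays, against 189.3, 170.5, 746.7 and 99.17 on the standard arrays. Its groups overlapped, because cafeteria replicate 3 exceeded all standard arrays but replicate 3. The dimmer probe set had 13.95, 12.34, 41.32, 57.02 and 55.87 on the cafeteria arrays, against 66.28, 62.25, 294.3 and 68.9 on the standard arrays.

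The dimmer Ptprc probe set had groups that did not overlap, with the lowest standard signal 1.09 times the highest cafeteria one. The 2 probe sets thus disagreed on whether the groups lay apart: their log2 folds were -0.98 ± 0.45 and -1.25 ± 0.54 (SE) with all arrays, and -0.43 ± 0.32 and -0.77 ± 0.40 without standard replicate 3. On that array the signals were 4.38 and 4.44 times the median of the other standard arrays, so the 2 probe sets gave nearly the same excess there.

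Coro1a encodes coronin 1A, an actin-binding protein of leukocytes that T cells need for migration and survival. Its signals were 87.92, 50.35, 91.88, 183.2 and 70.47 on the cafeteria arrays, against 206.0, 200.7, 1111 and 149.8 on the standard arrays. Standard replicate 3 was 5.39 times the next highest array. The groups overlapped with and without it, since cafeteria replicate 4 exceeded standard replicate 4, and 4 of 5 cafeteria arrays were below all standard arrays. The log2 fold was -1.55 ± 0.49 (SE), and -0.93 ± 0.33 without standard replicate 3.

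Ighvl1 is annotated as a variable segment of the immunoglobulin heavy chain, which B cells and plasma cells make. Its signals were 92.83, 39.64, 73.62, 76.54 and 3.963 on the cafeteria arrays, against 211.0, 181.8, 1489 and 179.4 on the standard arrays. All cafeteria arrays were below all standard arrays, and the lowest standard signal was 1.93 times the highest cafeteria signal, the widest such gap among the 10 probe sets. The log2 fold was -2.42 ± 0.62 (SE), and -1.71 ± 0.60 without standard replicate 3. With cafeteria replicate 5 left out instead, where the signal was 3.963, the fold was -2.01. Standard replicate 3 was 8.19 times the median of the other standard arrays, yet these 3 lay close together, at 190.7 ± 17.6 (SD, n = 3), and still apart from the cafeteria arrays at 57.3 ± 35.6 (SD, n = 5). Variable segments are alike in sequence, so signal from related segments may be counted here.

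Plac8, a small cysteine-rich protein made by many leukocytes and also by some epithelia, had 101.2, 197.8, 183.8, 136.3 and 194.9 on the cafeteria arrays, against 1227, 427.9, 1593 and 250.9 on the standard arrays. Here 2 standard arrays were high, replicates 1 and 3, and every cafeteria array was below every standard array. The log2 fold was -2.00 ± 0.44 (SE), and -1.60 ± 0.40 without standard replicate 3. The standard arrays differed widely among themselves, at 635.3 ± 520.2 (SD, n = 3) without that array.

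Arhgap4, a GTPase-activating protein found mainly in blood cells, had 89.27, 145.0, 67.71, 67.97 and 113.2 on the cafeteria arrays, against 176.0, 297.7, 379.1 and 231.6 on the standard arrays. The groups did not overlap, and standard replicate 3 was only 1.27 times the next highest array. The log2 fold of -1.35 ± 0.26 (SE) became -1.17 ± 0.28 without it.

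Traf5 encodes an adaptor that carries signals from receptors of the TNF receptor family. It had 221.5, 227.3, 237.5, 179.5 and 188.3 on the cafeteria arrays, against 310.2, 369.3, 357.2 and 267.7 on the standard arrays. The groups did not overlap, and here standard replicate 2 was the highest. The log2 fold was -0.59 ± 0.16 (SE) and -0.54 ± 0.18 without standard replicate 3, the smallest shift among the 10 probe sets.

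**Figure D1:**
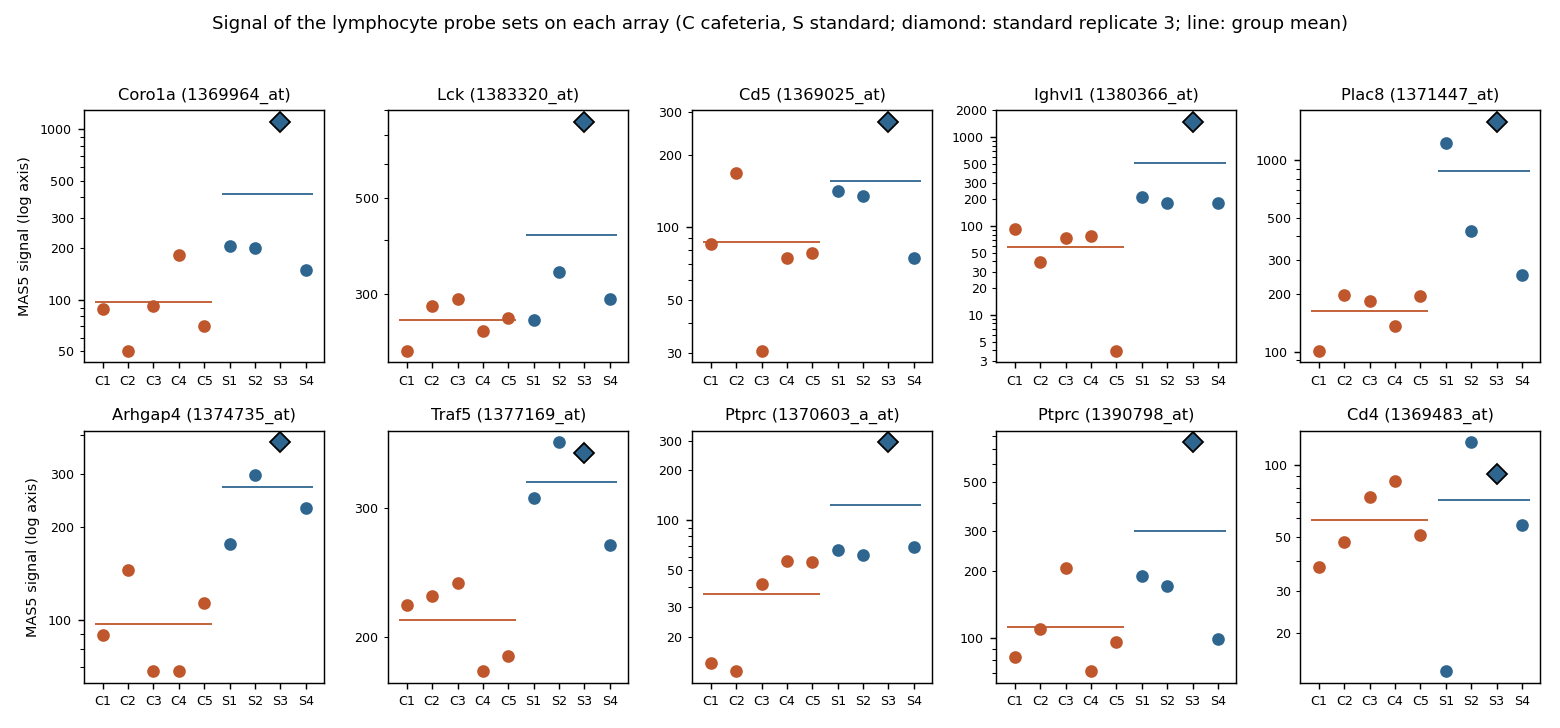
Each panel plots the linear signal of 1 probe set (log axis, own range) on the 5 cafeteria and 4 standard arrays, with a line at each group mean and a diamond for standard replicate 3. Coro1a, Ighvl1 and both Ptprc probe sets show 1 array far above the rest, Plac8 shows 2 high standard arrays, and Arhgap4 and Traf5 show groups apart with no single array far above.

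The genes that stayed apart without standard replicate 3 were Ighvl1, Plac8, Arhgap4 and Traf5, together with the dimmer Ptprc probe set. With all 9 arrays the same 5 probe sets were apart. Standard replicate 3 was not the lowest standard array for any member probe set, so leaving it out could not change which were apart. Staying apart therefore says nothing on how far the differences rest on that array. Of the 8 members past the filter, 4 had all cafeteria arrays below all standard arrays, where 0.762% of all tested probe sets did. Without standard replicate 3 it was 4 of the same 8, where 1.51% of the probe sets past the 9-array filter did. Fewer arrays make such a separation easier. Of those 8, Ighvl1 and Cd5 passed the filter only with standard replicate 3 included. With the filter set without that array, 6 member probe sets passed and 3 of them were apart. The share over all probe sets was not computed for that filter, so this count has no baseline. The members were chosen from this contrast, so these shares describe the choice.

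Leaving out standard replicate 3 moved the folds of Ighvl1, Coro1a and the brighter Ptprc probe set the most, by 0.72, 0.62 and 0.55 on the log2 scale. The folds of Plac8, Lck and Cd5 moved by 0.40, 0.33 and 0.29. The fold of the dimmer Ptprc probe set moved by 0.48. Those of Arhgap4 and Traf5 moved by 0.17 and 0.05. Over the 9 genes the mean log2 fold was -1.13 with all arrays and -0.77 without that array. Of the 10 folds, 10 were negative with all arrays and 9 without it, Cd4 being the exception.

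**Figure D2:**
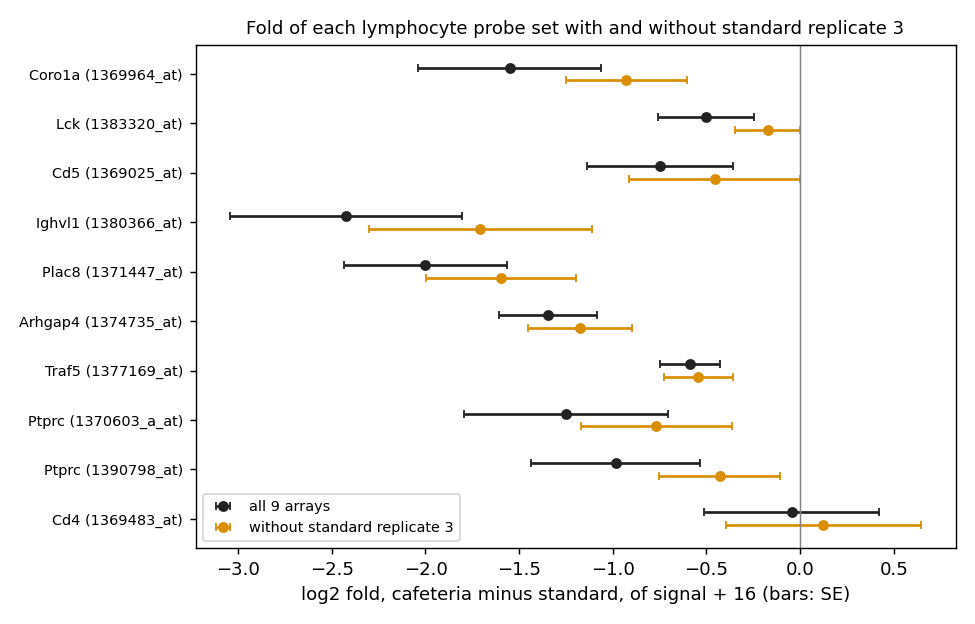
Points give the log2 fold, cafeteria minus standard, of each probe set with all 9 arrays (dark) and without standard replicate 3 (orange), with bars of 1 standard error from the limma fit, or from the ordinary fit for probe sets below the filter. All points but that of Cd4 without standard replicate 3 lie left of 0, and the shift to the right is smallest for Traf5, at 0.05.

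Standard replicate 3 was the highest of the 9 arrays for 7 of the 8 members past the filter, where it was so for 9.99% of tested probe sets, and for 8 of all 10. This count was in view when the members were chosen. The array did not stand apart as a whole: its mean correlation with the other arrays was 0.959, within the range of 0.951 to 0.966 over all 9. The excess over the median of the other standard arrays ranged from 1.15 times for Traf5 to 8.19 times for Ighvl1.

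The label was checked against defining lymphocyte markers, of which 16 of 18 had a probe set named on the array. The immunoglobulin genes Ighm and Igha, also planned as markers, were not among the 18. The 16 markers were dim: 2 of 16 passed the filter, the receptor zeta chain Cd247 and the B cell inhibitor Cd22. None was at 0, the lowest signal being 1.84. The summed signal of the 16 was 547.5 to 854.3 on cafeteria arrays, against 849.3 to 1155 on the other 3 standard arrays and 2999 on standard replicate 3. The CD3 chain Cd3d had 11.69 to 54.38 on cafeteria arrays, against 10.78 to 91.05 on the other standard arrays and 335.9 on standard replicate 3. Ms4a1, which encodes CD20 of B cells, had 3.333 to 68.22, against 20.14 to 38.69 and 389.6. Standard replicate 3 was the highest array for 10 of the 16 markers, whereas Cd2, Cd28, Jchain, Mzb1, Nkg7 and Gzmb were highest on another array.

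Cd79b, the signalling chain of the B cell receptor, had 4.196, 7.411, 8.607, 6.918 and 10.62 on the cafeteria arrays, against 45.47, 25.7, 274.2 and 43.4 on the standard arrays. Its groups did not overlap, like those of Ighvl1, and standard replicate 3, not being its lowest standard array, could not change that. At the 14th percentile of mean signal it was below the filter and therefore not tested. The cytotoxic cell markers were split. Nkg7 and Gzmb had 39.09 and 25.0 on standard replicate 3, within the range of the other arrays, whereas Prf1 and Klrd1 were highest there, at 180.8 and 70.77.

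**Figure D3:**
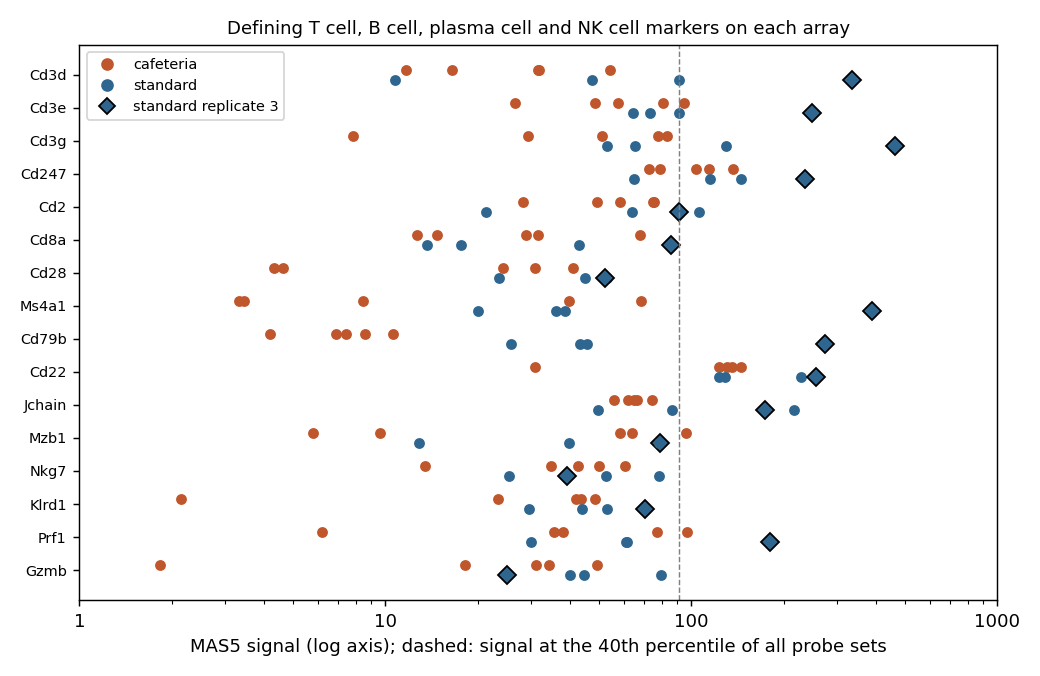
Points give the linear signal (log axis) of 16 lymphocyte markers on cafeteria arrays (orange) and standard arrays (blue), with a diamond for standard replicate 3 and a dashed line at the 40th percentile of all probe sets, 91.1. Standard replicate 3 is the highest array for 10 of the 16 markers, and most other points lie left of the line.

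The other genes of the pathway were taken from 7 lists of lymphocyte and leukocyte genes, without the members. These lists were chosen with earlier results of these data known, so the shares over them, here and in the next paragraph, are a description. Of 100 genes with a named probe set, 34 passed the filter and were tested, and 0 were called by limma in either direction (lowest adjusted p = 0.839), with 10 at an unadjusted p under 0.05, as were 1080 of the 18625 probe sets tested on the array. Their median log2 fold was -0.31, against -0.01 over all probe sets tested, and 28 of 34 were negative (82.4%, against 51.9%). Without standard replicate 3 the median was -0.16 and 19 of 33 tested were negative, with 0 called and 3 at an unadjusted p under 0.05 (lowest adjusted p by limma = 0.996). Over the whole array without it, 9759 of 18625 were negative and 711 were at an unadjusted p under 0.05.

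Standard replicate 3 was the highest array for 62 of these 100 genes, against 8.97% of all probe sets. The share was 23 of 29 for leukocytes in general, 11 of 15 for B cells, 10 of 14 for T cell receptor signalling and 10 of 17 for the T cell surface, but 3 of 15 for NK and cytotoxic cells and 1 of 5 for immunoglobulins and plasma cells, the list nearest to Ighvl1. The summed signal of the 17 T cell surface genes was 821.7 to 1167 on cafeteria arrays, against 1151 to 1436 on the other standard arrays and 2693 on standard replicate 3, and that of the 15 B cell genes was 1179 to 1567, against 1503 to 1814 and 3365. Expressed as the median difference of the 100 genes from their mean over the other 8 arrays, the level was -0.30 to 0.05 on cafeteria arrays, against 0.06 to 0.20 on the other standard arrays and 0.98 on standard replicate 3, on the log2 scale. The members gave -0.49 to -0.17, against 0.20 to 0.70 and 1.95, on the same scale as a mean over the 9 genes.

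Among the T cell genes, Tcf7, a transcription factor of T cells, had a log2 fold of -1.70 ± 0.52 (SE) and -1.03 without standard replicate 3 (adjusted p by limma = 0.839). Lat, the adaptor that Lck signalling feeds into, had -0.72 ± 0.27 and -0.53, but passed the filter only with standard replicate 3 included. Fyb1, another adaptor of T cells, differed in sign at 0.55 ± 0.16 and 0.58, with groups apart in the other direction and signals of 463.1, 562.9, 664.1, 789.1 and 560.1 on the cafeteria arrays, against 436.3, 395.8, 431.8 and 360.0 on the standard arrays. The adjusted p of Lat and Fyb1 by limma was 0.839 as well. The other 7 T cell genes tested lay nearer to 0. Satb1, Cd247, Skap1, Lcp2 and Lef1 had -0.36, -0.33, -0.16, -0.09 and -0.07 with all arrays, and -0.26, -0.06, -0.09, 0.08 and 0.18 without standard replicate 3. Thy1 and Runx3 had 0.01 and 0.10, and 0.01 and 0.17 without it.

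Among genes of leukocytes in general, Rac2, a small GTPase of blood cells, had 80.31, 152.7, 135.6, 133.0 and 114.7 on the cafeteria arrays, against 426.7, 289.8, 1482 and 152.9 on the standard arrays. Its log2 fold was -1.65 ± 0.47 (SE), and -1.05 without standard replicate 3. Cd53, Laptm5 and Il2rg, the shared receptor chain for several interleukins, had -0.90, -0.89 and -0.82, and -0.43, -0.54 and -0.49 without that array. None of these 4 passed the test (adjusted p by limma = 0.839 each). Of the 4 B cell genes tested, Cd22 had -0.69 ± 0.36 and Blnk -0.29 ± 0.16, whereas Fcrla had -0.09 ± 0.18 and Ebf1 0.18 ± 0.19, and 0 passed.

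Chemokines and receptors of lymphoid organs had their highest array in standard replicate 3 for 7 of 10 named genes. Their summed signal was 1273 to 1498 on cafeteria arrays, against 1478 to 1978 on the other standard arrays and 5126 on standard replicate 3. Ccl19, which guides cells within lymph nodes, had 79.71 to 126.9 on cafeteria arrays, against 66.88 to 125.8 on the other standard arrays and 331.7 on standard replicate 3. Cxcr4, a chemokine receptor of lymphocytes and other cells, had a log2 fold of -0.77 ± 0.25 (SE), and -0.44 without that array. Their part in the signal of the members was not tested.

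Lists of other blood cells were set beside these. The summed signal of 29 leukocyte genes, which lymphocytes express too, was 7210 to 8528 on cafeteria arrays, against 7693 to 9207 on the other standard arrays and 16050 on standard replicate 3. That of 19 macrophage and myeloid genes was 3560 to 6320, against 5529 to 6412 and 7398, with standard replicate 3 the highest for 4 of 19. Of the 13 macrophage genes tested, 12 had negative folds, with 0 called by limma. Their median log2 fold was -0.19, and -0.13 without standard replicate 3. Among the larger were C1qc and Cybb, with -0.59 and -0.57 with all arrays, and -0.56 and -0.57 without standard replicate 3. The macrophage markers Cd68, C1qa, C1qb and Csf1r had -0.004, -0.10, -0.14 and -0.30, and -0.05, -0.08, -0.09 and -0.22 without it. The summed signal of neutrophil genes was 406.2 to 703.0, against 482.0 to 683.9 and 374.0. For red blood cell genes it was 1936 to 8078, against 1811 to 4484 and 3091. None of the genes in these lists was at 0 on any array.

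The summed signals of islet hormone and acinar genes were low on the same array. For single hormone genes, the signal there ranged from 0.68 (Ins2) to 0.98 (Sst) times the median of the other arrays. The summed signal of the 6 islet hormone genes was 174700 to 263700 on cafeteria arrays, against 204700 to 250600 on the other standard arrays and 171400 on standard replicate 3. That of 12 acinar genes was 2960 to 11350, against 3862 to 9933 and 3898. Both sums on standard replicate 3 thus lay low in the range of the arrays, where the lymphocyte sums were at the top. Between the diets the acinar genes differed in the direction opposite to the members: 1 of 11 tested was negative, the median log2 fold was 0.46, and 0.32 without standard replicate 3, and Cela3b, a pancreatic protease, had 1.37 ± 0.45 (SE), with 0 called by limma. The part of these differences in the members' folds was not tested.

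**Figure D4:**
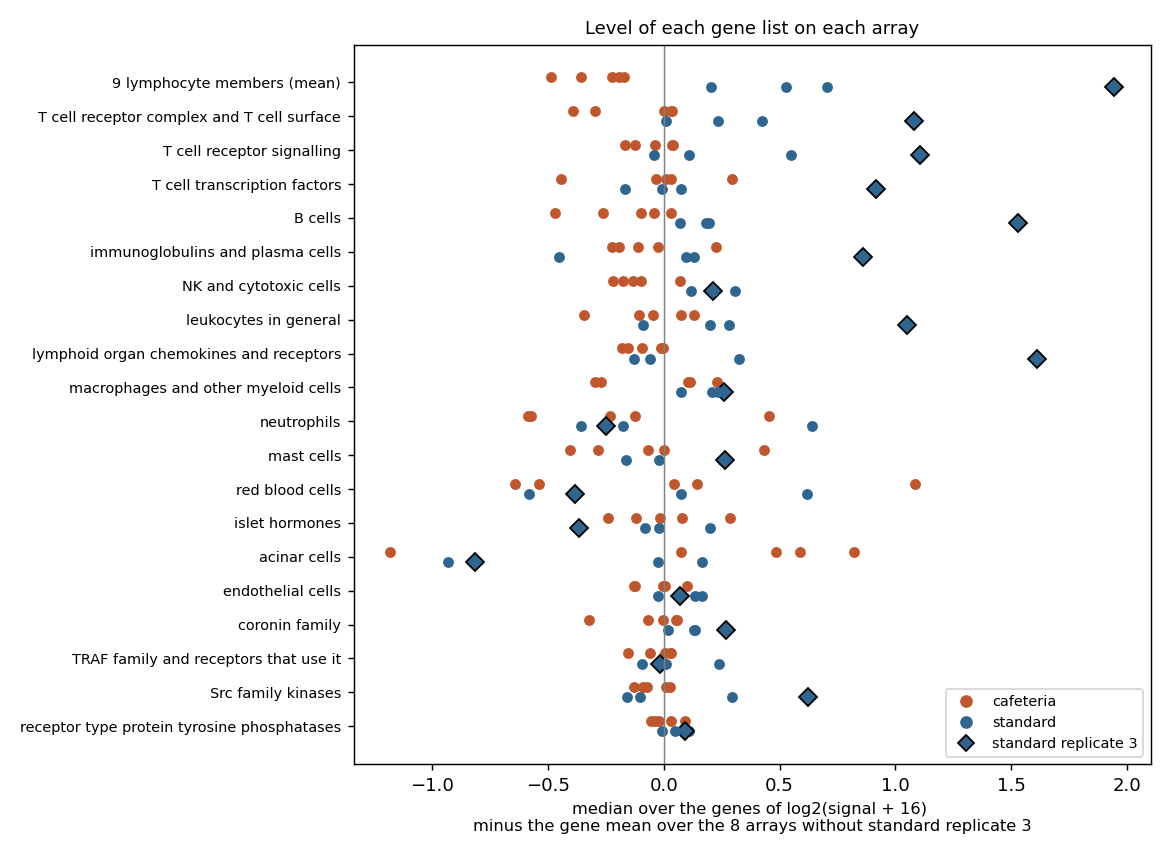
Each row is a gene list and each point an array (orange cafeteria, blue standard, diamond standard replicate 3); the x axis is the median over the genes, or the mean for the 9 members, of log2(signal + 16) minus the gene mean over the 8 arrays without standard replicate 3. Standard replicate 3 lies at 1.95 for the members and 1.53 for B cells, and within the range of the other arrays for neutrophils and endothelial cells.

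Relatives of the members by protein family were set beside them. Of 5 other coronins tested, Coro1b had -0.33 ± 0.17 (SE) and Coro2b -0.24 ± 0.11, sizes well below the -1.55 of Coro1a. Of 8 genes of the TRAF family and its receptors, Traf1 had -0.59 ± 0.23, close to the -0.59 of Traf5, and Traf4 had 0.35 ± 0.15. Leaving out standard replicate 3 gave -0.43 for Traf1, -0.54 for Traf5 and 0.37 for Traf4. Traf1 passed the filter only with that array included. The Src family kinases Fyn, Lyn, Src and Yes1 had -0.08, -0.19, -0.41 and -0.06, against -0.50 for Lck. Without standard replicate 3 the order turned, with -0.29 for Src and -0.17 for Lck. The median over 11 receptor-type tyrosine phosphatases was 0.03, against -0.98 and -1.25 for the Ptprc probe sets. No gene of these families was called by limma (adjusted p = 0.839 or above), and the differences between relatives were not tested.

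The 10 probe sets with the profile most like that of the members were found by Pearson correlation over the 9 arrays with the mean standardised level of the 9 genes, among 14045 other named probe sets past the filter. They were Cxcr4 with 2 probe sets (0.96 and 0.94), Tcf7 (0.96), Rac2 (0.95), Lrrc8a (0.95), Mnda (0.94), Traf1 (0.94), Cd53 (0.93), Stk17b (0.92) and Cd74 (0.92). In all 10 the highest array was standard replicate 3, and the arrays share that single high point. With it left out, 6 of the 10 were still among the 100 most alike, Lrrc8a, a subunit of a volume-regulated anion channel, being the 5th, and 18 of the first 100 were the same probe sets. Cd74, the invariant chain of MHC class II, had 1684 to 2642 on cafeteria arrays, against 3194 to 3612 on the other standard arrays and 7348 on standard replicate 3.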

How the data were processed

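Islet RNA of cafeteria-fed (5 samples) and standard-fed rats (4 samples) was hybridised to single-colour arrays. The authors deposited 1 intensity per probe set and array, on a linear scale; the submitters' processing notes name MAS5, without a version. The trimmed mean of each array, with 2% removed at either end, is 500, and no further scaling was applied.

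The 57 control probe sets were dropped, leaving 31042, of which 20826 carry 1 symbol in the supplied platform annotation. Members were matched to that symbol, and list genes also to the current RefSeq symbol of the same gene identifier. Where a list gene had several probe sets, the one with the highest mean was used.

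Values were fitted as log2(signal + 16) with limma 3.58.1 in R 4.3.3. The model held diet alone and a variance trend on level, and p-values were adjusted by Benjamini-Hochberg for the 18625 probe sets at or above the 40th percentile of mean level. Standard errors are limma's; for probe sets under the filter they come from the ordinary fit of that probe set. The fit was tested on simulated data. Figures and sequence matches used Python 3.11.15.

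The members and lists were chosen with earlier results of these data known. The genes named come from the members, the listed cell type markers, in each list up to 4 of the tested genes with the smallest unadjusted p, and the 10 most alike in profile. Deviations from the group means of samples with the same replicate number correlated at -0.384 to 0.0296, so no clear positive likeness was seen. Samples with differing numbers were not compared, so these values cannot decide whether the numbers pair the samples. Results were recomputed with each array left out, without the filter or with it at the 60th percentile, with pseudocounts of 1 and 64, after median or quantile normalisation, with a replicate block, without the variance trend, with array weights and with 1 probe set per gene.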

Additional observations from a re-analysis of the deposited data

Results flagged for a closer look

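Among the members, standard replicate 3 lay far from the other standard arrays, on the log2 scale, for 3 probe sets: Coro1a had a signal of 1111 there, Ighvl1 1489 and the dimmer Ptprc probe set 294.3. The gap to the nearest standard array made up 0.848, 0.927 and 0.941 of the range of the group. In all, 22 groups of arrays were examined in this way, and no cafeteria array lay so far from its group. The members were chosen with the high level of standard replicate 3 known, so these gaps describe the choice of members and are not a test of that array.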

How the results depend on the processing

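Of 150 log2 folds of the members under alternative settings, 150 moved by less than 1 SD between arrays. That SD was taken over all 9 arrays. In the runs with an array left out, that array also widened the SD, so a larger move was not possible. The count therefore says nothing on how far the folds rest on single arrays. The sign turned in 5, each for Cd4, whose fold ranged from -0.49 to 0.25. Without standard replicate 3 the folds of Coro1a, Lck, Cd5 and both Ptprc probe sets shrank by more than 1.5 times, to -0.93, -0.17, -0.46, -0.43 and -0.77; that of Cd5 did so without cafeteria replicate 3 and that of the dimmer Ptprc probe set with a pseudocount of 64. The mean over the members ranged from -1.35 to -0.77 with each array left out, and was -1.08 with the replicate block, which changed no call. The 4 members past the filter with groups apart became 5 with no filter. At the 60th percentile filter they became 1, with Plac8 the one of them that passed it. With standard replicate 3 left out and the filter set anew on 8 arrays they were 3, as Ighvl1 falls below it. The share of all probe sets apart was not computed under these other filters, so these counts have no baseline. The median of the lymphocyte and leukocyte lists, -0.31, was -0.16 without standard replicate 3 and -0.15 at the 60th percentile filter. No list gene was called by limma in any alternative run. Probe sets called over the whole array numbered 0 to 2 with each array left out, the 2 being unnamed probe sets without standard replicate 2; the cause was not tested. Signals near background, as for Cd4 and most defining markers, limit what can be read, for some of them on standard replicate 3 too.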
